A study of Homo sapiens with 18 samples.

Results

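NCI-H1693 is a human cell line established from a non-small cell lung cancer, and is SMARCA4-deficient per the labels. Its messenger RNA was sequenced after exposure to the SMARCA2 degrader PRT3789. Of 16291 genes that passed a filter on low counts, 4178 (25.6%) had opposite signs of response at 6 h and at 48 and 72 h. From those, 9 genes were picked and are described here. They are CYBRD1, CYP24A1, GADD45A, DRAM1, KDSR, KIFC1, NLRP3, PRKCE and SLC25A25, 9 of the 43236 gene symbols in the deposited table. They were picked from these same libraries for that change of sign, so the signs at 6, 48 and 72 h are given as a description and support nothing. Cells were exposed to 50 nM PRT3789 or to the solvent DMSO for 6, 48 or 72 h, with 3 libraries in each of the 6 groups. Every group is the same SMARCA4-deficient line, and whether the libraries of a group were separate cultures is not given in the sources used here, so each p measures the spread between these libraries, which may be technical.

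SMARCA2 and SMARCA4 are the alternative ATPase motors of SWI/SNF, the chromatin remodelling complex that moves nucleosomes at enhancers and promoters. A cell without SMARCA4 relies on SMARCA2, and a degrader removes the SMARCA2 protein, not its transcript. A transcript measured hours after such a treatment reflects both its rate of synthesis and how fast the older molecules decay, and a transcript level days later also reflects changes in other regulators and in the state of the cells.

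Library totals ran from 23154484 to 31094797 counts, and each of the 9 genes passed the filter on low counts that 16291 genes passed. SMARCA2 averaged 39.4 CPM (the counts of a gene relative to the scaled library total) in DMSO and 40.5 CPM in PRT3789 at 6 h, 42.2 and 37.0 CPM at 48 h and 47.2 and 34.8 CPM at 72 h, a transcript level that does not check the loss of the protein. Epithelial markers were present in all 18 libraries, with EPCAM at 559 to 930 CPM and CDH1 at 125 to 346 CPM. The 6 epithelial markers summed to 8680 to 10000 CPM in DMSO and 8030 to 9110 CPM in PRT3789 at 6 h, to 10200 to 11000 and 4700 to 4930 CPM at 48 h, and to 9160 to 9940 and 4140 to 4360 CPM at 72 h, so the sum was lower in the treated libraries at the later times, and its part in the late differences was not tested. Of 4 fibroblast markers, LUM was at 61.5 to 128 CPM and COL1A1 at 11.7 to 24.7 CPM, while PDGFRB reached at most 1.40 CPM and DCN 1.68 CPM, with DCN at 0 in 6 libraries. The 6 h libraries scattered more than the later ones: over 11059 well expressed genes the median SD of log2 CPM was 0.167 (DMSO) and 0.149 (PRT3789) for the 6 h libraries. It was 0.119 and 0.0644 for those of 48 h and 0.0722 and 0.0669 for those of 72 h. The median SD of the 9 genes was 0.0818 and 0.0676 at 6 h, and between 0.0522 and 0.0865 at the later times. Because the genes were picked from these same libraries, their smaller 6 h spread is a description and does not show that they were measured more firmly.

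The 9 genes lie on 7 chromosomes and belong to several pathways. On GRCh38.p14, CYBRD1 spans chr2:171522233-171558129 and PRKCE chr2:45651279-46187990. GADD45A spans chr1:67685201-67688334 and NLRP3 chr1:247416077-247448817. KIFC1 is at chr6:33391461-33409896, SLC25A25 at chr9:128068232-128109245 and DRAM1 at chr12:101877580-101923612. KDSR is at chr18:63327726-63367206 and CYP24A1 at chr20:54143538-54173986. The antisense gene PRKCE-AS1 lies inside PRKCE, and had 0 or 1 count in a library. KDSR, NLRP3 and PRKCE each overlap an unnamed long noncoding RNA, and the way the counting divided reads between overlapping genes was not examined.

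Promoter sequence of 7 of the 9 genes, with 10 start sites, was in the RefSeq table of GRCh38.p14 used here, without CYP24A1 and GADD45A. A set of 5 short motifs was searched on both strands from 250 bases before to 20 bases after each start. They were the CCAAT box (CCAAT), the cell cycle homology region or CHR (TTTGAA), the cAMP response element or CRE (TGACGTCA), the AP-1 site (TGANTCA) and the TEAD site (ACATTCC). Over 34943 promoter windows, 33.2% held a CCAAT box, 14.2% a CHR, 7.14% an AP-1 site, 3.19% a TEAD site and 1.82% a CRE. The stretches below are shown because they hold the KIFC1 pair of CCAAT boxes with a CHR, the arrangement known as background from genes of late cell cycle, and the single CRE and TEAD matches among these genes. Capitals mark the motif letters, all on the plus strand.
KIFC1, chr6:33391723-33391842: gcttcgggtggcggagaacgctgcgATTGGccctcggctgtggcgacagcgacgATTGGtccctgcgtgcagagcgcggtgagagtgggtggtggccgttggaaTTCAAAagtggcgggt
SLC25A25, chr9:128098296-128098325: ggagggagcggTGACGTCAgccctgatctt
CYBRD1, chr2:171522381-171522410: aagaggccccACATTCCgggccagcagccc
In KIFC1 the CCAAT boxes lie on the opposite strand at -75 and -46 and the CHR, also on the opposite strand, at 5 from the start site. The CRE of SLC25A25 begins at -200 of the first of its 3 start sites, and the TEAD match of CYBRD1 at -83 of the second of its 2. None of the 10 windows held an AP-1 site, and the windows of DRAM1, KDSR, NLRP3 and PRKCE held none of the 5 motifs. A CCAAT box was also found in CYBRD1 and SLC25A25 and a CHR in SLC25A25, and no motif was held by all 7 genes.

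Of the 9 genes, 7 were lower in PRT3789 than in DMSO at 6 h and higher at 48 and 72 h, and CYP24A1 and KIFC1 went the other way. Their 6 h differences were small, from 1.16-fold to 1.52-fold, while the later ones ran from 1.13-fold in KDSR to 4.87-fold in CYP24A1. Levels below are CPM of replicates 1, 2 and 3 after TMM scaling of the library totals (trimmed mean of M values), and differences are log2 fold changes of PRT3789 against DMSO (log2FC) ± standard error (SE), with n = 3 libraries per group.

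**Figure D1:**
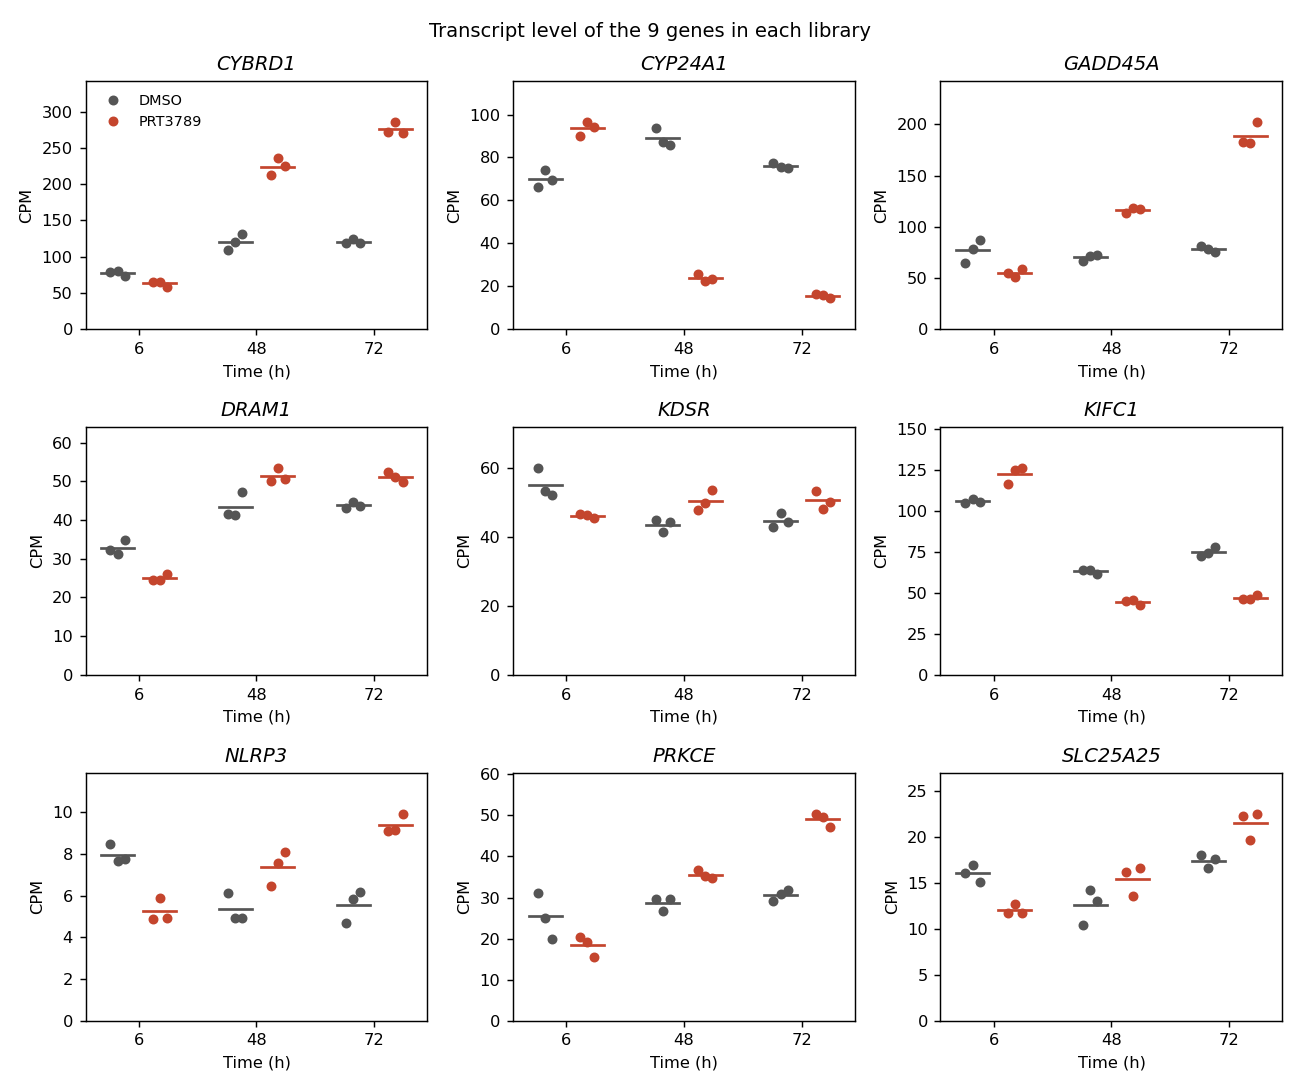
Level of each of the 9 genes in CPM (y axes, from 0) against time in h, with 1 point per library and a line at the mean of each group of 3. In CYP24A1 the PRT3789 points lie above DMSO at 6 h and far below at 48 and 72 h, while in CYBRD1 and GADD45A they lie below DMSO at 6 h and above it later.

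CYP24A1 encodes the mitochondrial 24-hydroxylase that inactivates the hormone form of vitamin D, and is itself a classical target of the vitamin D receptor. At 6 h it read 66.2, 73.9 and 69.4 CPM in DMSO and 90.2, 96.3 and 94.0 CPM in PRT3789, and the groups did not overlap. At 48 h it read 93.6, 87.3 and 86.0 CPM in DMSO against 25.6, 22.6 and 23.2 CPM in PRT3789, and at 72 h 77.5, 75.5 and 75.0 against 16.5, 15.8 and 14.6 CPM. Every treated library was thus above its controls at 6 h and below its controls later. The log2FC was 0.42 ± 0.087 at 6 h, -1.90 ± 0.067 at 48 h and -2.28 ± 0.069 at 72 h, a 1.34-fold higher level that became 3.74-fold and 4.87-fold lower.

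KIFC1, a minus-end directed kinesin that focuses spindle poles and clusters centrosomes in dividing cells, was the other gene that was higher first. Its 6 h levels were 105, 107 and 105 CPM in DMSO and 116, 125 and 126 CPM in PRT3789. By 48 h DMSO had 64.2, 64.2 and 61.8 CPM and PRT3789 44.9, 45.6 and 42.9 CPM. At 72 h the values were 72.5, 74.2 and 77.9 and 46.3, 46.1 and 48.6 CPM. No group overlapped the next in the order of the 6 means, which ran from PRT3789 at 48 h, the lowest, through PRT3789 at 72 h, DMSO at 48, 72 and 6 h to PRT3789 at 6 h. Its log2FC was 0.21 ± 0.083, -0.51 ± 0.057 and -0.67 ± 0.057 at 6, 48 and 72 h. In bulk RNA a smaller share of dividing cells and less KIFC1 transcript per cell cannot be told apart.

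CYBRD1 encodes duodenal cytochrome b, a ferric reductase of the plasma membrane, and had the highest late gain with GADD45A. At 6 h it was at 79.0, 79.6 and 73.9 CPM in DMSO and 65.7, 64.5 and 58.8 CPM in PRT3789. DMSO then read 109, 119.6 and 131 CPM at 48 h and 119, 124 and 119 CPM at 72 h, and PRT3789 212, 236 and 224 and 272, 285 and 271 CPM. Treated and control libraries did not overlap at any time, and the DMSO groups of 48 and 72 h were the only neighbours in the order of means that did. The log2FC went from -0.30 ± 0.089 to 0.90 ± 0.063 and 1.19 ± 0.063.

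GADD45A, a growth arrest and DNA damage gene and a textbook p53 target, read 65.0, 78.6 and 86.9 CPM in DMSO and 55.0, 50.8 and 58.6 CPM in PRT3789 at 6 h. At 48 h the values were 66.9, 71.7 and 72.2 CPM in DMSO and 114, 119 and 118 CPM in PRT3789, and at 72 h 81.1, 78.0 and 75.8 and 183, 182 and 202 CPM. The DMSO libraries of 6 h spanned those of 48 and 72 h, whereas the treated libraries were below every control at 6 h and above every control at 48 and 72 h. Its log2FC was -0.49 ± 0.13, 0.73 ± 0.058 and 1.27 ± 0.058. On the log2 scale the DMSO libraries of 6 h were the most scattered of its groups, with an SD of 0.213 and a level of 76.8 ± 11.1 CPM (SD, n = 3).

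DRAM1, a lysosomal membrane protein that promotes autophagy downstream of p53, showed a smaller swing. In DMSO it went from 32.2, 31.1 and 34.9 CPM at 6 h to 41.4, 41.3 and 47.3 CPM at 48 h and 43.1, 44.7 and 43.7 CPM at 72 h. In PRT3789 it went from 24.6, 24.5 and 26.0 to 50.0, 53.4 and 50.6 and 52.3, 51.0 and 49.8 CPM. The arms did not overlap at any of the times, while within each arm the 48 and 72 h libraries did. The log2FC was -0.39 ± 0.092, 0.24 ± 0.064 and 0.22 ± 0.064.

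KDSR, the reductase of the second step of sphingolipid synthesis, had the smallest differences of the 9 genes at 48 and 72 h. DMSO libraries read 59.9, 53.3 and 52.1 CPM at 6 h, 44.9, 41.3 and 44.4 CPM at 48 h and 43.0, 47.0 and 44.2 CPM at 72 h. PRT3789 libraries read 46.7, 46.3 and 45.5, then 47.8, 49.8 and 53.4, then 53.4, 48.2 and 50.2 CPM. All control libraries of 48 and 72 h were below those of 6 h, while the treated ones lay within 45.5 to 53.4 CPM, and the arms did not overlap at any time. With a log2FC of -0.26 ± 0.091, 0.21 ± 0.066 and 0.18 ± 0.065, the later differences passed or missed the threshold with the setting: without DMSO 48 h replicate 2 or PRT3789 48 h replicate 3 the 48 h adjusted p was 0.0674 or 0.111. Without DMSO 72 h replicate 1 or 3 or PRT3789 72 h replicate 1, that of 72 h was between 0.0675 and 0.133.

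NLRP3, the sensor that assembles the caspase-1 activating inflammasome, is best known from myeloid cells and was measured at 4.68 to 9.91 CPM. DMSO had 8.46, 7.66 and 7.75 CPM at 6 h, 6.15, 4.95 and 4.92 CPM at 48 h and 4.68, 5.83 and 6.18 CPM at 72 h. PRT3789 had 4.90, 5.90 and 4.94 CPM, 6.44, 7.58 and 8.09 CPM and 9.09, 9.15 and 9.91 CPM. The arms did not overlap at any time, and the log2FC was -0.60 ± 0.13, 0.47 ± 0.13 and 0.75 ± 0.13. Of 12 myeloid markers, CD163 was at 0 counts in all 18 libraries, FCGR3A in 17 and SPI1 in 5, and PTPRC reached at most 0.953 CPM. The markers summed to 17.0 to 18.5 CPM in DMSO and 13.1 to 15.8 CPM in PRT3789 at 6 h, to 9.91 to 11.3 and 6.40 to 6.76 CPM at 48 h, and to 9.83 to 10.6 and 5.53 to 6.70 CPM at 72 h. Most of each sum was CD68, at 3.27 to 15.1 CPM, and the sum was lower in PRT3789 at all 3 times, unlike NLRP3.

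PRKCE, a protein kinase C isoform activated by diacylglycerol without calcium, was the one gene whose arms overlapped at 6 h. There it read 31.1, 25.1 and 20 CPM in DMSO and 20.5, 19.1 and 15.6 CPM in PRT3789. At 48 h it had 29.7, 26.8 and 29.7 CPM in DMSO and 36.7, 35.2 and 34.7 CPM in PRT3789, and at 72 h 29.0, 30.8 and 31.7 and 50.3, 49.5 and 47.2 CPM. All treated libraries of 48 and 72 h were above all controls, and the log2FC was -0.47 ± 0.18, 0.31 ± 0.066 and 0.68 ± 0.065. At 6 h, levels of longer genes deviated from the group mean in a library-specific way, with a Spearman correlation of length and deviation from -0.350 to 0.364 in DMSO and from -0.352 to 0.339 in PRT3789. PRKCE has 9978 bases of exon sequence, the most of the 9 genes. With the length trend removed, its 6 h log2FC was -0.48 ± 0.13, with an adjusted p of 0.196.

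SLC25A25, a calcium-regulated carrier that exchanges ATP-Mg for phosphate across the inner mitochondrial membrane, was at 16.0, 17.0 and 15.1 CPM in DMSO and 11.8, 12.7 and 11.7 CPM in PRT3789 at 6 h. At 48 h DMSO read 10.4, 14.2 and 13.0 CPM and PRT3789 16.1, 13.6 and 16.6 CPM, with overlap between the arms. At 72 h the values were 17.99, 16.6 and 17.6 and 22.2, 19.6 and 22.5 CPM, without overlap. The log2FC was -0.41 ± 0.10, 0.30 ± 0.11 and 0.30 ± 0.10. Its 48 h adjusted p lay between 0.0968 and 0.129 without DMSO replicate 1 or PRT3789 replicate 1 or 3 of that time, 0.0503 with the length trend removed and 0.0549 with 48 h fitted alone, and between 0.0571 and 0.0621 at 72 h without DMSO 72 h replicate 2 or PRT3789 72 h replicate 1 or 3.

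The order of the 6 group means differed among the genes. PRT3789 at 6 h was the lowest group in CYBRD1, GADD45A, DRAM1, NLRP3, PRKCE and SLC25A25, and PRT3789 at 72 h the highest in the same genes except DRAM1, where it overlapped PRT3789 at 48 h. In CYBRD1, DRAM1 and PRKCE the means then rank as DMSO at 6, 48 and 72 h and PRT3789 at the later times, and in PRKCE the lowest 4 groups overlapped their neighbours. In GADD45A the order above PRT3789 at 6 h was DMSO at 48, 6 and 72 h, PRT3789 at 48 h and PRT3789 at 72 h. In CYP24A1 the order from the lowest was PRT3789 at 72 and 48 h, DMSO at 6, 72 and 48 h and PRT3789 at 6 h, and only the last 2 overlapped. NLRP3 and SLC25A25 had DMSO at 48 h next to the lowest group and overlapping it, and PRT3789 at 72 h alone above all others. In KDSR the order was DMSO at 48 and 72 h, PRT3789 at 6, 48 and 72 h and DMSO at 6 h, with a gap without overlap only between PRT3789 at 6 and 48 h.

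**Figure D2:**
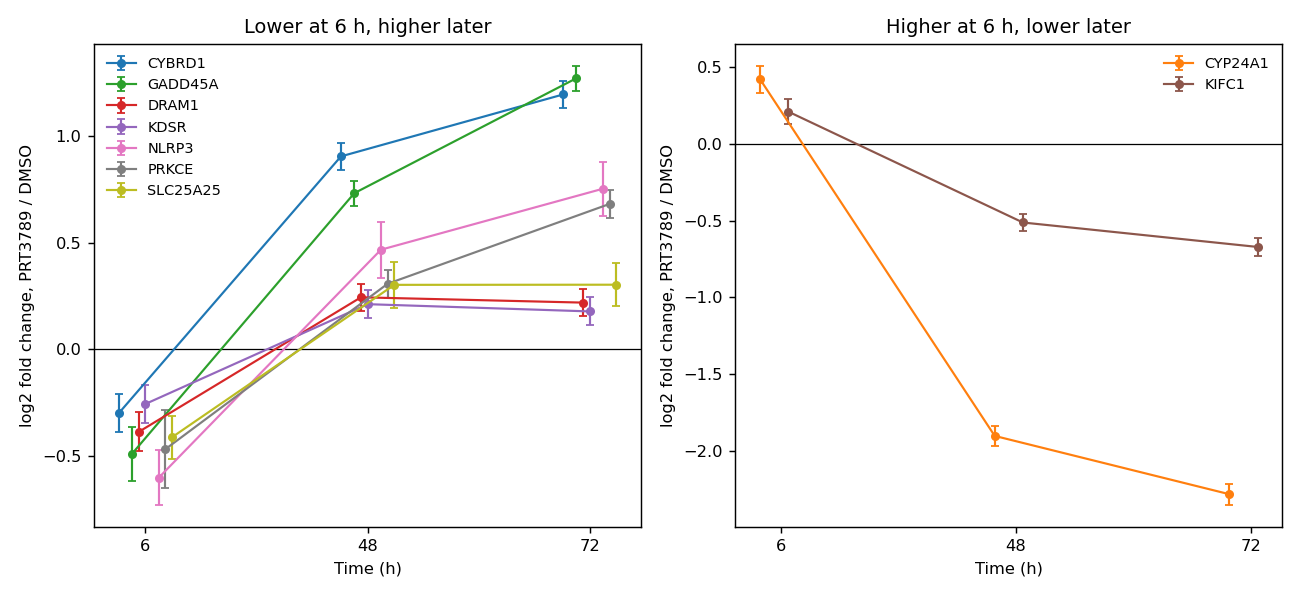
Log2 fold change of PRT3789 against DMSO (y axes) at 6, 48 and 72 h, with bars of 1 SE and points shifted sideways for legibility, for the 7 genes that were lower first (left) and the 2 that were higher first (right). GADD45A and CYBRD1 end highest, at 1.27 and 1.19, and CYP24A1 lowest, at -2.28.

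How firm the early difference is depended on the libraries in the fit and on the test. With the 6 h libraries fitted on their own in edgeR's quasi-likelihood test, 144 of 16291 genes (0.884%) were called, that is, had an adjusted p (Benjamini-Hochberg, over the tested genes) below 0.05. Of these, 19 were higher (0.117%) and 125 lower (0.767%). None of the 9 genes was among them, 0 of 9, although all 9 had an unadjusted p under 0.05, as did 1394 genes of the table. Their adjusted p ran from 0.102 in CYP24A1 and 0.112 in NLRP3 to 0.515 in KIFC1 and PRKCE. In one edgeR model of all 18 libraries, 705 genes were called at 6 h (4.33%), and all 9 genes with them, at an adjusted p from 6.94e-04 in CYP24A1 to 0.0465 in KDSR. The genes were picked for their 6 h sign in these same libraries, so their calls at 6 h are a description. DESeq2's Wald test on the 6 h libraries called 391 genes, among them CYP24A1, DRAM1 and NLRP3. With the trend of each library with gene length removed, edgeR called CYP24A1 at an adjusted p of 0.0389 and GADD45A at 0.0327. The limma-voom fit called 0 of the 9, as did each fit with 1 of the 6 h libraries left out.

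**Figure D3:**
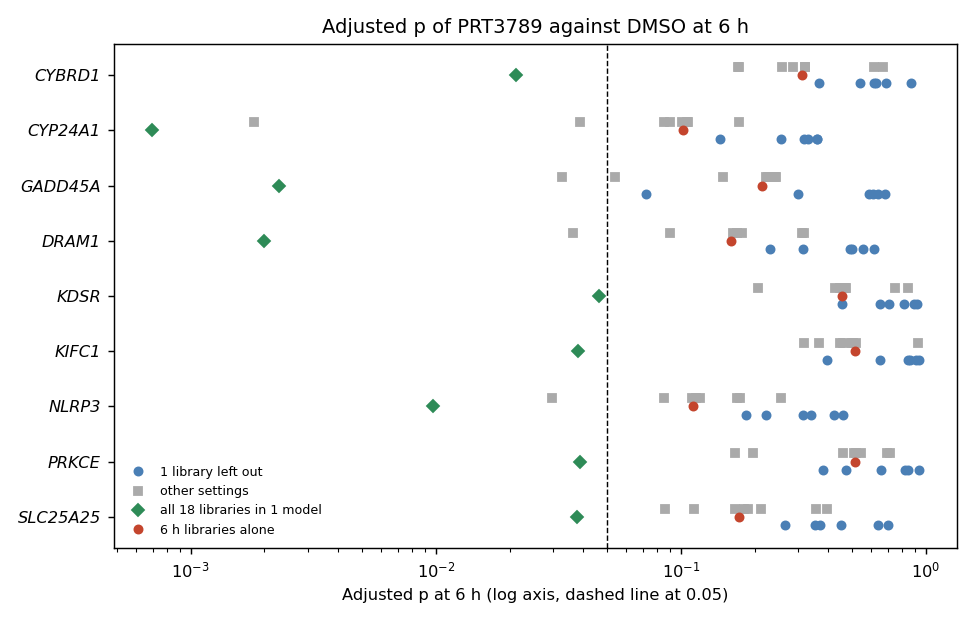
Adjusted p of PRT3789 against DMSO at 6 h (log x axis, dashed line at 0.05) for each of the 9 genes, with the 6 h libraries alone in red, all 18 libraries in one model in green, 1 library left out in blue and the other settings in grey. All red points lie right of the line, between 0.102 and 0.515, and all green points lie left of it. The 9 genes were picked from these same libraries.

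At 48 h, 8518 genes (52.3%) were called, 26.2% of all tested genes higher and 26.1% lower, and at 72 h 8547 (52.5%), 26.3% higher and 26.2% lower. All 9 genes were called at both times, 7 higher and 2 lower, which their choice fixed. In the model of all 18 libraries the shares were 42.1% and 43.4%. A sign at 6 h opposite to that at both later times was held by 4178 genes (25.6%). Only 14 genes (0.0859%) had it and were called at all 3 times in the model of all 18 libraries, namely the 9 genes and ERICD, LOC124900388, LOC728392, SLC34A2 and ZBTB1. With the 6 h libraries on their own this left 1 gene (0.00614%), SLC34A2, and 0 of the 9. Arms that did not overlap were found in 14.7% of genes at 6 h, 56.2% at 48 h and 61.9% at 72 h, and in 8, 8 and 9 of the 9 genes. All 3 together, with a reversal, were found in 155 genes (0.951%), 7 of the 9 included, without PRKCE and SLC25A25.

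**Figure D4:**
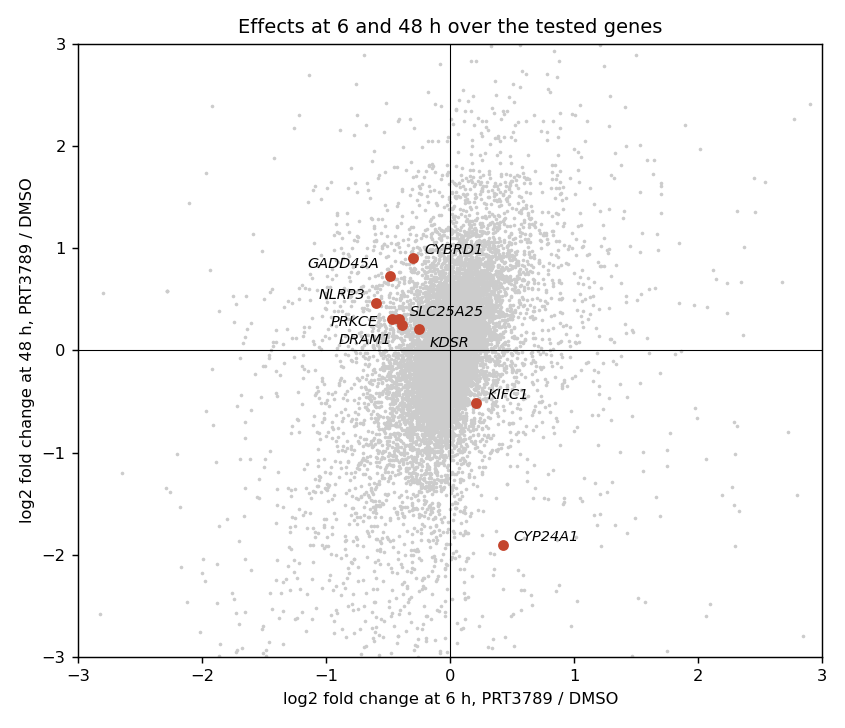
Log2 fold change of PRT3789 against DMSO at 48 h (y axis) against that at 6 h (x axis) for the 15975 tested genes within 3 log2 units of 0 on both axes, in grey, with the 9 genes in red. The 9 genes lie in the upper left and lower right parts of the plot by choice, and among them CYP24A1 lies farthest from 0 at 48 h.

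The same reversal was reached by different paths in the 2 arms. Between 6 and 48 h the mean log2 CPM of KIFC1 changed in the downward direction in both, by -0.74 in DMSO and -1.46 in PRT3789. CYBRD1, DRAM1 and PRKCE went up in both, CYBRD1 by 0.62 in DMSO and 1.83 in PRT3789, DRAM1 by 0.40 and 1.03, and PRKCE by 0.20 and 0.96. In these 4 genes the treated cells moved the way the controls did, and further. Given those directions, the choice of the genes fixed the larger change in the treated cells. The other 5 went opposite ways. CYP24A1 changed by 0.35 in DMSO and -1.97 in PRT3789, and GADD45A by -0.12 and 1.09. KDSR changed by -0.34 and 0.12, NLRP3 by -0.58 and 0.48, and SLC25A25 by -0.36 and 0.35. In KDSR, NLRP3 and SLC25A25 the control difference was the larger of the 2 in size, in SLC25A25 by a small margin. These are differences of group means with no test, because the choice of the genes acted on the same libraries. In GADD45A and PRKCE the DMSO libraries of 6 and 48 h overlapped, so the direction in their controls is uncertain. Over all tested genes, the PRT3789 effect changed from 6 to 48 h in 3132 (19.2%), 8.83% upward and 10.4% downward.

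**Figure D5:**
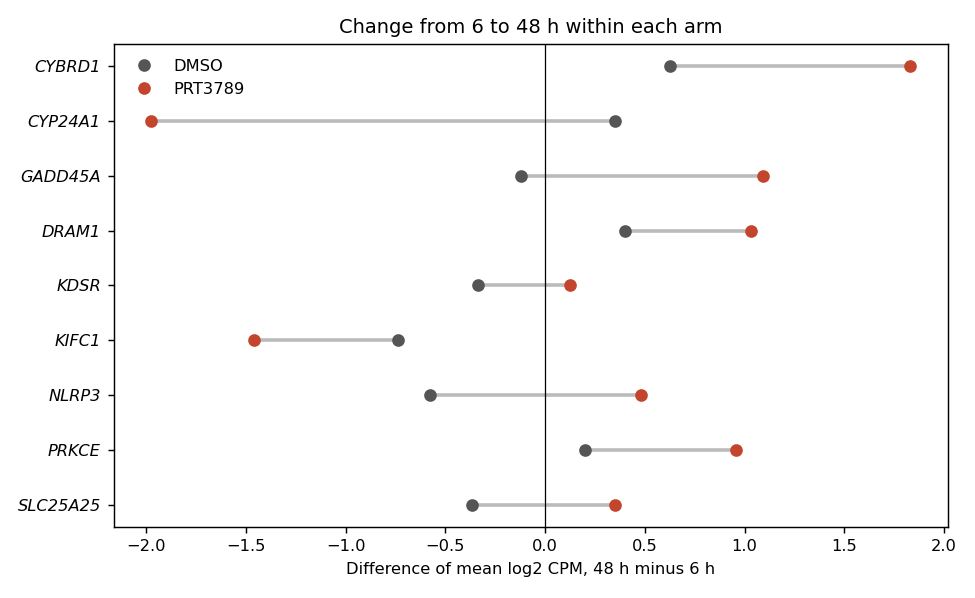
Difference of mean log2 CPM between 48 and 6 h (x axis) in DMSO and in PRT3789 for each of the 9 genes, joined by a line. KIFC1 lies left of 0 in both arms, CYBRD1, DRAM1 and PRKCE right of 0 in both, and the other 5 on opposite sides.

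The size of the step from 48 to 72 h was not used to choose the genes, and was tested in the 12 libraries of those times. The choice did use the sign of the effect at both times in these libraries. The shares over all tested genes, here and below, are therefore not a like comparison. In treated cells CYP24A1 fell further and CYBRD1, GADD45A, PRKCE and SLC25A25 rose further, 5 of 9 genes, while 819 genes (5.03%) were called in that comparison, 3.20% higher and 1.82% lower. The log2 difference of PRT3789 at 72 against 48 h was -0.61 ± 0.072 in CYP24A1 (adjusted p = 4.09e-05) and 0.70 ± 0.057 in GADD45A (adjusted p = 1.37e-06). It was 0.46 ± 0.065 in PRKCE (adjusted p = 2.33e-04), 0.47 ± 0.10 in SLC25A25 (adjusted p = 0.0111) and 0.30 ± 0.062 in CYBRD1 (adjusted p = 0.00725). For NLRP3 it was 0.35 ± 0.12 (adjusted p = 0.118), and for KIFC1, DRAM1 and KDSR between -0.0087 and 0.081. The call of SLC25A25 was lost without PRT3789 48 h replicate 2 (adjusted p = 0.0725) or PRT3789 72 h replicate 1 (0.0534) or 3 (0.0537), and that of PRKCE in the model of all 18 libraries (0.0616).

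In DMSO alone, CYP24A1 fell and KIFC1 and SLC25A25 rose between 48 and 72 h, 3 of 9 genes, where 3065 of all tested genes (18.8%) were called, 10.6% higher and 8.24% lower. The log2 difference was -0.23 ± 0.062 in CYP24A1 (edgeR adjusted p = 0.0159), 0.24 ± 0.056 in KIFC1 (adjusted p = 0.00663) and 0.47 ± 0.11 in SLC25A25 (adjusted p = 0.00540). SLC25A25 thus differed by 0.47 in both arms, and its PRT3789 effect changed by 0.00066 ± 0.15. The other 6 genes differed by 0.011 to 0.16 between the control groups. The largest of these was GADD45A, at 0.16 ± 0.058 (adjusted p = 0.0670), which DESeq2 called (0.0453), as did edgeR with the length trend removed, at a log2 difference of 0.31 (adjusted p = 9.54e-04). Without DMSO 72 h replicate 3 the calls of CYP24A1 (adjusted p = 0.0637) and KIFC1 (0.0662) were lost, and the model of all 18 libraries, which includes the more scattered 6 h libraries, called none of the 3.

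The PRT3789 effect itself grew between 48 and 72 h in CYP24A1, GADD45A and PRKCE, 3 of 9 genes, in a test of the difference between the times that called 295 genes (1.81%), 0.706% upward and 1.10% downward. These tests share their libraries with the comparisons within each arm. In GADD45A the effect grew by 0.54 ± 0.081 on the log2 scale (edgeR adjusted p = 0.00629), in PRKCE by 0.37 ± 0.093 (adjusted p = 0.0438) and in CYP24A1, downward, by -0.38 ± 0.095 (adjusted p = 0.0456). CYBRD1 followed with 0.29 ± 0.089 (adjusted p = 0.0960) and NLRP3 with 0.29 ± 0.18 (adjusted p = 0.415), neither called. For DRAM1, KDSR and SLC25A25 the estimate lay within 0.034 of 0, with an SE of 0.090 to 0.15, and for KIFC1 it was -0.16 ± 0.080 (adjusted p = 0.291). GADD45A was called in every setting but the model of all 18 libraries (adjusted p = 0.170). CYP24A1 and PRKCE were near the threshold. With DESeq2 size factors or limma-voom CYP24A1 was not called (0.0547 and 0.0545), nor was PRKCE with total counts (0.0504), and in the model of all 18 libraries neither was (0.230 and 0.533). Also, without any one library other than DMSO 48 h replicate 1 their calls were lost, at an adjusted p of 0.0637 to 0.196 and 0.0535 to 0.125, and without that replicate CYBRD1 was called too (0.00461).

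The vitamin D genes around CYP24A1 were mostly not called at 6 h. Of 12 tested, 1 was lower and 0 higher at 6 h, 3 lower and 2 higher at 48 h, and 4 lower and 0 higher at 72 h. The median log2FC of the list was 0.10, -0.50 and -0.56 at the 3 times, against -0.0078, 0.015 and 0.010 over all tested genes. The gene called at 6 h was VDR, the vitamin D receptor, with a log2FC of -1.49 (edgeR adjusted p = 0.00467, at most 0.0483 over the alternatives), -2.94 at 48 h and -2.93 at 72 h. VDR was thus lower at 6 h, when CYP24A1 was higher. IGFBP3, a binding protein of insulin-like growth factors, had 0.09, -1.19 and -1.45, and CYP27B1, the enzyme that makes the active hormone, 0.14, -0.25 and -0.53. Both had the signs of CYP24A1, as did SPP1 (3.10 ± 1.00, -5.31 ± 2.03 and -6.35 ± 1.91) and CALB1, at most 35 counts. SPP1 was called at 72 h only and CALB1 at no time. RXRA, CYP27A1 and THBD, like VDR, were below 0 at each time.

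Around GADD45A and DRAM1, 26 other p53 genes were tested, of which 2 were lower at 6 h, 6 higher and 8 lower at 48 h, and 7 higher and 8 lower at 72 h. Their median log2FC was -0.11, 0.020 and 0.11. CDKN1A, the cyclin-dependent kinase inhibitor p21, was lower at all 3 times, by a log2FC of -0.58, -1.51 and -1.06, and PHLDA3 by -0.84, -1.39 and -1.23. The 2 genes did not turn as GADD45A did, and their 6 h calls (edgeR adjusted p = 0.0279 for both) depended on single libraries. Without DMSO 6 h replicate 2 or 3 or PRT3789 6 h replicate 1 or 2 both were lost, and CDKN1A also without PRT3789 6 h replicate 3, at an adjusted p of 0.106 to 0.182 in PHLDA3 and 0.113 to 0.192 in CDKN1A. With total counts that of CDKN1A was 0.0664. PLK2 had 0.21, 1.40 and 1.25, and GADD45B, a relative of GADD45A, 0.02, -0.50 and -0.38. TIGAR (-0.20, 0.38 and 0.55), TNFRSF10B (-0.21, 0.21 and 0.39) and TP53I3 (-0.08, 0.30 and 0.51) had the signs of GADD45A. They were not called at 6 h and were called higher at both later times. Of 17 other autophagy and lysosome genes, 0 were called at 6 h, 7 were higher and 3 lower at 48 h, and 9 higher and 2 lower at 72 h, with a median of 0.0065, 0.14 and 0.19. MAP1LC3B, which coats autophagosomes, had -0.05, 0.67 and 1.08, GABARAPL1 0.07, 0.55 and 0.70, and SQSTM1 0.02, 0.50 and 0.54. DRAM2, a relative of DRAM1, was not called at any time.

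In the 7 lists other than vitamin D and p53, edgeR called 0 of 110 genes at 6 h, while 8 had an unadjusted p under 0.05, DESeq2 called 3 and limma-voom 0. Iron and sphingolipid genes, the surroundings of CYBRD1 and KDSR, moved in both directions late. Of 19 other iron genes, 0 were called at 6 h, 6 were higher and 6 lower at 48 h, and 8 higher and 6 lower at 72 h, with a median of 0.017, 0.086 and 0.18. STEAP3, an endosomal ferric reductase, had a log2FC of -0.22, -2.22 and -2.10, opposite in late sign to the reductase CYBRD1. Of the cytochrome b561 relatives of CYBRD1, CYB561 (0.19, 0.19 and 0.22) and CYB561A3 (0.15, 0.30 and 0.43) were called higher at both later times. CYB561D1 and CYB561D2 were not called at any time, and FRRS1 was called lower at 72 h (-0.34). FTH1, the ferritin heavy chain, had -0.09, -0.80 and -0.78, and NCOA4, which delivers ferritin to lysosomes, 0.13, 0.48 and 0.70. SLC40A1 had the signs of CYBRD1, at -0.17, 0.46 and 0.59, not called at 6 h and called higher at both later times. TF and CYB561D2 had these signs too, and were not called at any time. Among 26 other sphingolipid genes, 0 were called at 6 h, 10 were higher and 4 lower at 48 h, and 12 higher and 2 lower at 72 h, with a median of -0.019, 0.077 and 0.21. SPHK1, a sphingosine kinase, had 0.49, 1.15 and 1.15, and the acid ceramidase ASAH1 -0.01, 0.54 and 0.92. CERK, a ceramide kinase, had -0.05, -0.67 and -0.61. DEGS2, with at most 112 counts in a library, had the signs of KDSR, at -0.75, 0.76 and 1.23. It was not called at 6 h and was called higher at both later times. SPTLC1 and SPTLC2 are subunits of the enzyme one step before KDSR, and SPTLC2 had 0.04, 0.38 and 0.28, while SPTLC1 was not called at any time.

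The other mitotic kinesins, like KIFC1, were nearly all lower at the later times. Of 14 other mitotic and kinesin-14 genes, 0 were called at 6 h, 12 were lower and 1 higher at 48 h, and 13 lower and 1 higher at 72 h, with a median log2FC of 0.052, -0.65 and -0.93. KIF20A had 0.06, -0.98 and -1.24, and KIF2C -0.06, -0.75 and -0.98. KIF18B (0.35, -0.45 and -0.93), KIF11, KIF15, KIF18A, KIF22 and KIF4A, like KIF20A, had the signs of KIFC1. KIF14, KIF20B, KIF23 and CENPE, like KIF2C, were below 0 at each time. Of the nearest relatives, KIFC3 had -0.28, -1.16 and -1.10 and KIFC2, the one that was higher, 0.22, 0.35 and 0.37. Of 12 other inflammasome genes, 0 were called at 6 h, 1 was higher and 3 lower at 48 h and 1 higher and 5 lower at 72 h, with a median of 0.014, -0.48 and -0.45. TXNIP, a thioredoxin inhibitor, had -0.50, -0.41 and -0.60, and was called at the later times. CARD8 (-0.29) and CASP1 (-1.82, at most 16 counts) were called lower at 72 h, the latter not without DMSO 72 h replicate 2 (adjusted p = 0.0672) or PRT3789 72 h replicate 2 (0.0834). NLRP1, another sensor, had -0.41, -0.82 and -0.88 with at most 35 counts in a library, and its call was lost in 15 of 21 alternatives at 48 h and 9 of 21 at 72 h.

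Among 13 other kinases of the protein kinase C group, 0 were called at 6 h, 4 were higher and 4 lower at 48 h, and 2 higher and 7 lower at 72 h, with a median of -0.044, -0.0044 and -0.19. PRKCA had a log2FC of -0.04, -0.74 and -1.18, PRKCD -0.32, -0.58 and -0.37, and PRKCI 0.39, 0.76 and 0.65. PRKCI thus had the late sign of PRKCE, and PRKCA and PRKCD the opposite one. The 72 h call of PRKCD was lost without DMSO 72 h replicate 2 (0.0901). PRKCH and PKN2 were called lower at 72 h, at -0.19 and -0.36, PRKCH not without DMSO 72 h replicate 1 or 3 or PRT3789 72 h replicate 3 (0.0517 to 0.100), and PRKCQ was not called at any time. Of 9 other mitochondrial carriers, 0 were called at 6 h, 2 were higher and 3 lower at 48 h, and 3 of each at 72 h, with a median of -0.031, -0.042 and 0.035. SLC25A23, a close relative of SLC25A25, had 0.31, 0.65 and 0.48, SLC25A24, called at 72 h only, -0.13, -0.17 and -0.28, and SLC25A41, at most 27 counts, 0.15, 0.43 and 1.38, called at 72 h but not without DMSO 72 h replicate 2 or 3 (0.0615 and 0.0605). SLC25A5, an ADP/ATP carrier, had -0.06, -0.50 and -0.52 and SLC25A13, an aspartate/glutamate carrier, -0.03, -0.26 and -0.40.

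The genes most like each of the 9 were taken as the 2 with the highest Pearson correlation of log2 CPM over the 18 libraries, among 10748 genes. The libraries fall into 6 groups, so this measures likeness of the 6 group levels and is given as a description. CYBRD1 was nearest to ERRFI1 (r = 0.994) and PAQR7 (0.991), KIFC1 to HAUS7 (0.992) and POLA2 (0.990), and CYP24A1 to ME3 (0.987) and IGFBP3 (0.980). GADD45A was nearest to FSTL3 (0.984) and TNFAIP1 (0.965), PRKCE to MINDY2 (0.968) and AMIGO1 (0.954), and DRAM1 to TBCEL (0.964) and SPRY2 (0.962). NLRP3, KDSR and SLC25A25 had no neighbour above 0.9: DLG3 (0.893) and LDAF1 (0.829) were nearest to NLRP3, PTER (0.814) and ANKEF1 (0.790) to KDSR, and PARP12 (0.804) and LRFN4 (0.792) to SLC25A25. ERRFI1 had a mean of 95.7 CPM in DMSO and 83.1 CPM in PRT3789 at 6 h, 179.8 and 325 CPM at 48 h, and 179.3 and 407 CPM at 72 h. ME3 had 63.4 and 62.2 CPM at 6 h, 64.3 and 18.8 CPM at 48 h, and 57.8 and 14.5 CPM at 72 h, so it followed the late fall of CYP24A1 with a 6 h log2FC of -0.027. All 18 neighbours except ME3 and POLA2 had the signs of their member at 6, 48 and 72 h. They were picked for likeness of level, so the shared signs are a description. None of the 18 neighbours was called at 6 h with those libraries alone.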

How the data were processed

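Messenger RNA was counted in 18 libraries of NCI-H1693 cells. Per the labels, reads were 150 bp pairs from stranded poly(A) libraries. Per the submitters' processing notes, the authors used nf-core/rnaseq 3.17.0 with Trim Galore, STAR on GRCh38 (release 110) and RSEM, and deposited expected counts, which were already whole numbers. The single tools' versions are not given in the sources used here. Depth limits counting error only, since the reads carry no molecular identifiers.

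Genes were filtered with filterByExpr over the 6 groups and scaled by TMM. Two-sided edgeR 4.0.16 quasi-likelihood F tests (R 4.3.3, limma 3.58.1) were fitted to the 6 h libraries alone for the 6 h effect, to the 12 later libraries for effects and changes at 48 and 72 h, and to all 18 for the change from 6 to 48 h. The test was checked on simulated counts. Log2 CPM used a prior count of 2. Alternatives were other scalings, no filter or 1 CPM in 3 libraries, DESeq2 1.42.0, limma-voom, a replicate block, an offset for gene length (92.1% of tested genes with a GENCODE 44 length), 1 or 2 times alone, 1 model of all libraries, and each library left out. The 9 genes, the gene lists, markers and motifs were chosen with earlier results of these data known. Named besides the 9 genes are the 2 nearest genes of each (mean of at least 5 CPM), the nearest relatives in each list and up to 3 list genes with the smallest p at 72 h. ERICD, LOC124900388, LOC728392, SLC34A2, ZBTB1, FRRS1, CYB561D1, CYB561D2, TIGAR, TNFRSF10B, TP53I3 and DEGS2 were named after their values were seen. So were KIF11, KIF14, KIF15, KIF18A, KIF18B, KIF20B, KIF22, KIF23, KIF4A and CENPE. The same holds for SLC40A1, TF, SPP1, CALB1, RXRA, CYP27A1 and THBD.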

Additional observations from a re-analysis of the deposited data

Results flagged for a closer look

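The effect of PRT3789 differed between 48 and 72 h in 3 of the 9 genes by the test of that difference. It grew by 0.54 on the log2 scale in GADD45A and by 0.37 in PRKCE, and became more negative in CYP24A1, by a change of -0.38. In GADD45A all 3 treated libraries of 72 h were above all 3 of 48 h, and the same held in PRKCE. In CYP24A1 all 3 were below. The DMSO libraries separated in the same direction in GADD45A (75.8 to 81.1 CPM at 72 h, 66.9 to 72.2 CPM at 48 h). So did those of CYP24A1 (75.0 to 77.5 CPM at 72 h, 86.0 to 93.6 CPM at 48 h), and those of PRKCE overlapped. The call for the change of effect was lost in 15 of 21 alternatives in CYP24A1, 14 in PRKCE and 1 in GADD45A. In no group of 3 libraries was an outlying library tested for.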

How the results depend on the processing

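The number of genes called varied with the scaling, the filter, the tool and the libraries in the fit. At 6 h, where 144 were called, total counts gave 95, DESeq2's test 391 and the model of all 18 libraries 705, and of the 9 genes DESeq2 called 3, the fit without the length trend 2 and the model of all 18 all 9. The share of higher calls was 13.2%, against 24.8% with DESeq2 and 29.6% in the model of all 18. For the change of effect from 48 to 72 h, with 295 calls, there were 1191 with no filter, 790 with DESeq2, 195 without the length trend and 0 in the model of all 18, and the share of upward calls was 39.0%, against 56.4% without the length trend. Of the 3 genes among the 9 called there, 2 remained in number with DESeq2 size factors, total counts or limma-voom, and DESeq2's test called 4. For DMSO at 72 against 48 h, the model of all 18 libraries gave 88 genes and 0 of the 9, against 3065 and 3, and for PRT3789 it gave 235 against 819, where no filter gave 1289. Its share of higher calls was 71.6% in DMSO, against 56.2%, and without the length trend that share was 47.6%. At 48 h the share of higher calls was 50.2%, but 57.7% with total counts and 47.3% with DESeq2 size factors, and at 72 h 50.1%, 56.7% and 48.7%. The 1 CPM filter gave 145 genes at 6 h and 329 for the change from 48 to 72 h. Each time fitted alone gave 7739 genes and 8 of the 9 at 48 h and 9226 and 9 at 72 h, and the change from 6 to 48 h in the libraries of those times gave 2264, against 3132.

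With a replicate block within each time, 136 genes were called at 6 h and 305 for the change from 48 to 72 h, of the 9 genes 0 and 1. With it, CYP24A1 (adjusted p = 0.0512) and PRKCE (0.0639) were no longer called for that change, nor CDKN1A at 6 h (0.0524). Over the 9 pairs of libraries with a shared number and time, the correlation of deviations ran from -0.237 to 0.338, so the numbers were not taken to pair the libraries. With 1 library left out, calls ran from 21 to 135 at 6 h, 7418 to 8795 at 48 h, 7620 to 9167 at 72 h, 31 to 2389 for the change from 48 to 72 h, 1063 to 4901 for DMSO, 321 to 1432 for PRT3789 and 2475 to 3251 for the change from 6 to 48 h. Of the 9 genes these called 0 at 6 h, 7 to 9 at 48 and at 72 h, 1 to 4 for the change, 1 to 3 in DMSO and 4 to 5 in PRT3789. The fewest at 6 h came without DMSO 6 h replicate 2, and the fewest and most for the change without PRT3789 48 h replicate 1 and DMSO 48 h replicate 1. The difference of PRKCE in DMSO between 72 and 48 h went from 0.090 to -0.023 without the length trend. Where a value lay within 1 SE of 0 and no setting called it, a change of sign was not counted as a reversal, which left out 29 results. KDSR missed the threshold at 48 h without the length trend (adjusted p = 0.122) and at 72 h with no filter (0.085). The cause of these shifts was not tested.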

Other observations

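The library of DMSO at 48 h, replicate 3, had a total of exactly 27000000 counts.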
